A study of Homo sapiens with 80 samples.

Results

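The 31 genes described here encode enzymes and regulators of cholesterol and fatty acid synthesis, and their RNA was measured while human pluripotent stem cells were turned into cardiomyocytes. They were taken from a fixed list by gene symbol, with no measured value in the rule, and all 31 were among the 43388 genes of the deposited tables. All 31 also passed the filters on low values, which kept 25664 genes in the multi-omic experiment and 23848 in the RNA-only experiment. By role, 8 act in the mevalonate and isoprenoid steps (ACAT2, HMGCS1, MVK, PMVK, MVD, IDI1, FDPS and GGPS1), 11 make squalene and turn it into cholesterol (FDFT1, SQLE, LSS, CYP51A1, TM7SF2, MSMO1, NSDHL, HSD17B7, EBP, SC5D and DHCR7), 5 control the pathway or carry sterols (INSIG1, SREBF1, SREBF2, SCAP and STARD4), and 7 make, lengthen or desaturate fatty acids (ACLY, ACACA, FASN, ELOVL6, SCD, FADS1 and FADS2).

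In the multi-omic experiment, WTC11, an induced pluripotent stem cell line, was sampled in 56 wells by poly(A) RNA sequencing, 25 wells from a high purity differentiation begun at passage 52 and 31 wells from a low purity differentiation begun at passage 69. Purity means the class that the submitters gave a differentiation from its day 16 flow cytometry of cardiac troponin T, which is not analysed here. Each class was a single differentiation, so purity, passage and differentiation cannot be told apart, and the p-values below measure the spread between wells. High and low purity wells numbered 4 and 4 on each of days 0, 2, 4 and 6, 3 and 4 on day 8, 1 and 4 on day 10, 2 and 4 on day 13, and 3 and 3 on day 16. In the RNA-only experiment, total RNA was sequenced once from each of 6 differentiations at 4 stages: H9, an embryonic stem cell line, at passage 55 (low purity) and 58 (high purity), IMR90-4, an induced pluripotent line, at passage 55 (high purity) and 75 (low purity), and WTC11 at passage 69 (low purity) and 81 (high purity). The first stage was day 0, the next ones were days 2, 4 and 6 in WTC11 and days 3, 5 and 7 in the other lines. Per the labels, all cells were seeded in mTeSR1 and moved on day 0 to RPMI1640 with B27 minus insulin and CHIR99021, a WNT pathway activator. WTC11 then received IWP2, an inhibitor of WNT secretion, on day 2, B27 minus insulin on day 4 and B27 with insulin from day 6, whereas H9 and IMR90-4 received B27 minus insulin on days 1 and 5, IWP2 with conditioned medium on day 3 and B27 with insulin from day 7.

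As background, sterol regulatory element binding proteins are transcription factors made as membrane precursors and encoded by SREBF1 and SREBF2. The escort protein SCAP carries a precursor to the Golgi when membrane sterols are scarce, proteases there free the active part, and the retention protein encoded by INSIG1 holds SCAP back when sterols are plentiful. The product of SREBF2 acts mainly on cholesterol genes and that of SREBF1 mainly on fatty acid genes, and INSIG1 is itself a target, which makes a feedback loop.

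Because the genes were listed as members of the SREBP pathway, the bases before their starts are shown first. RefSeq promoters of GRCh38.p14 (250 bases before to 50 bases after a start) were matched for 27 of the 31 genes, 38 promoters in all. ACAT2, FDFT1, SQLE and FASN had no match. The 250 bases before the first listed start are given for SREBF2, which holds the short form TCACNCCA of the sterol regulatory element, for HMGCS1 and INSIG1, a sterol enzyme and the feedback gene described in most comparisons, and for SC5D, whose level ran apart from theirs. They lie at chr22:41832855-41833104 (plus strand), chr5:43313413-43313662 (minus strand), chr7:155297628-155297877 (plus strand) and chr11:121292521-121292770 (plus strand). Capitals mark TCACNCCA, the CCAAT box (ATTGG on the strand shown) and the E-box CACGTG.
SREBF2: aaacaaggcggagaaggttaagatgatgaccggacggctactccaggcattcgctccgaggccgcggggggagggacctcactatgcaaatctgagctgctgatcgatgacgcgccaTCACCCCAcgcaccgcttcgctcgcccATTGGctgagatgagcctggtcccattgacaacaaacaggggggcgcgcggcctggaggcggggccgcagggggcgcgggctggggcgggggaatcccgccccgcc
HMGCS1: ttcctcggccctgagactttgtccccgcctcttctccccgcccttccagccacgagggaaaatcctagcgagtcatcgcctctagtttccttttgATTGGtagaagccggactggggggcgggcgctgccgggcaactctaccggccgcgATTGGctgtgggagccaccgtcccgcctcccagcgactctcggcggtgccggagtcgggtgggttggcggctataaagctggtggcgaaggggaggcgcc
INSIG1: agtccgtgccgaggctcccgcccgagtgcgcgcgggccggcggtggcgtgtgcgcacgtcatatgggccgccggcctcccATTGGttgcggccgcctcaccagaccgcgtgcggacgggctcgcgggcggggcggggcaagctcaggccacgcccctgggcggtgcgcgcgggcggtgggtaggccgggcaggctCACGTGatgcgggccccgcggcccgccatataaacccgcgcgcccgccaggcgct
SC5D: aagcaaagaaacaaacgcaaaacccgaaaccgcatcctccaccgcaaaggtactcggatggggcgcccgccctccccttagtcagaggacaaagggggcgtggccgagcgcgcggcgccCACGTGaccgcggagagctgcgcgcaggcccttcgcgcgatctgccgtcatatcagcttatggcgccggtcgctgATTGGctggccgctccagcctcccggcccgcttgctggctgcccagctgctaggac
On both strands of the 300 bases, CCAAT was in 25 of the 38 promoters (65.8%), against 34.6% of 35116 promoters of all genes. The GC box GGGCGG was in 33 (86.8%), against 45.0%. TCACNCCA was in 3 promoters, those of MSMO1, MVK and SREBF2 (7.9%, against 3.95%); in SREBF2 it lay 133 to 126 bases before the start, and a CCAAT box 106 to 102 bases before it. CACGTG was in 5 promoters of 4 genes, INSIG1, LSS, SC5D and SCAP (13.2%, against 7.26%). The 2 promoters of SC5D overlap, and the same CACGTG was counted in both. A listed gene with several starts thus counted more than once in these shares. The motifs counted here are matches of letters and not measured binding sites.

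Depth was 6579715 to 18143597 reads per library in the multi-omic experiment and 17990882 to 40357968 in the RNA-only experiment. High purity wells were all deeper than low purity wells on each of days 0, 2, 4 and 6 (11507316 to 18143597 against 6579715 to 11059737 reads on day 0), so depth and class cannot be told apart there. Expression is in TPM, a level per gene length scaled to the library total, and log2 fold changes are on the log2 scale of TPM + 1 after TMM scaling between libraries. LSS and ACACA each had 2 entries in the tables, and their reads (32 to 287 and 8 to 75 per multi-omic library for the entry used) are uncertain, because they may be split between the entries. In every other listed gene the lowest library held 24 reads in the multi-omic experiment (PMVK) and 83 counts in the RNA-only experiment (NSDHL). Of 8 marker lists, none held a gene at 0 in all libraries of an experiment. On day 0 the 11 cardiomyocyte markers summed to 20.5 to 26.8 TPM in high purity wells, against 24.4 to 33.5 TPM in low purity wells, and on day 16 to 12888 to 15010.0 against 4784 to 7095 TPM. Low purity well 1 of day 16 was nearest to a well of day 13, and is kept under its label. Bulk RNA cannot tell fewer cells of a type from less RNA per cell, which holds for every value below.

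On day 0 the listed genes ranged widely in level. SCD, the desaturase that makes monounsaturated fatty acids, stood highest at 1249.5 ± 23.0 TPM (mean ± SD, n = 4) in high purity wells, before ACLY, which makes cytosolic acetyl-CoA from citrate, at 595 ± 12.0 TPM and FASN, fatty acid synthase, at 526 ± 23.4 TPM. HMGCS1, which makes the precursor of mevalonate, was at 291 ± 8.57 TPM, close to the lanosterol demethylase CYP51A1 at 289 TPM, and in low purity wells CYP51A1 was higher at 252 against 226 TPM. The summed TPM of all 31 genes was 5342 to 5579.7 in high and 4278 to 4342 in low purity wells of day 0, and it was lower on every later day. On day 16 it was 1343 to 1614 and 1481 to 1612 TPM.

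**Figure D1:**
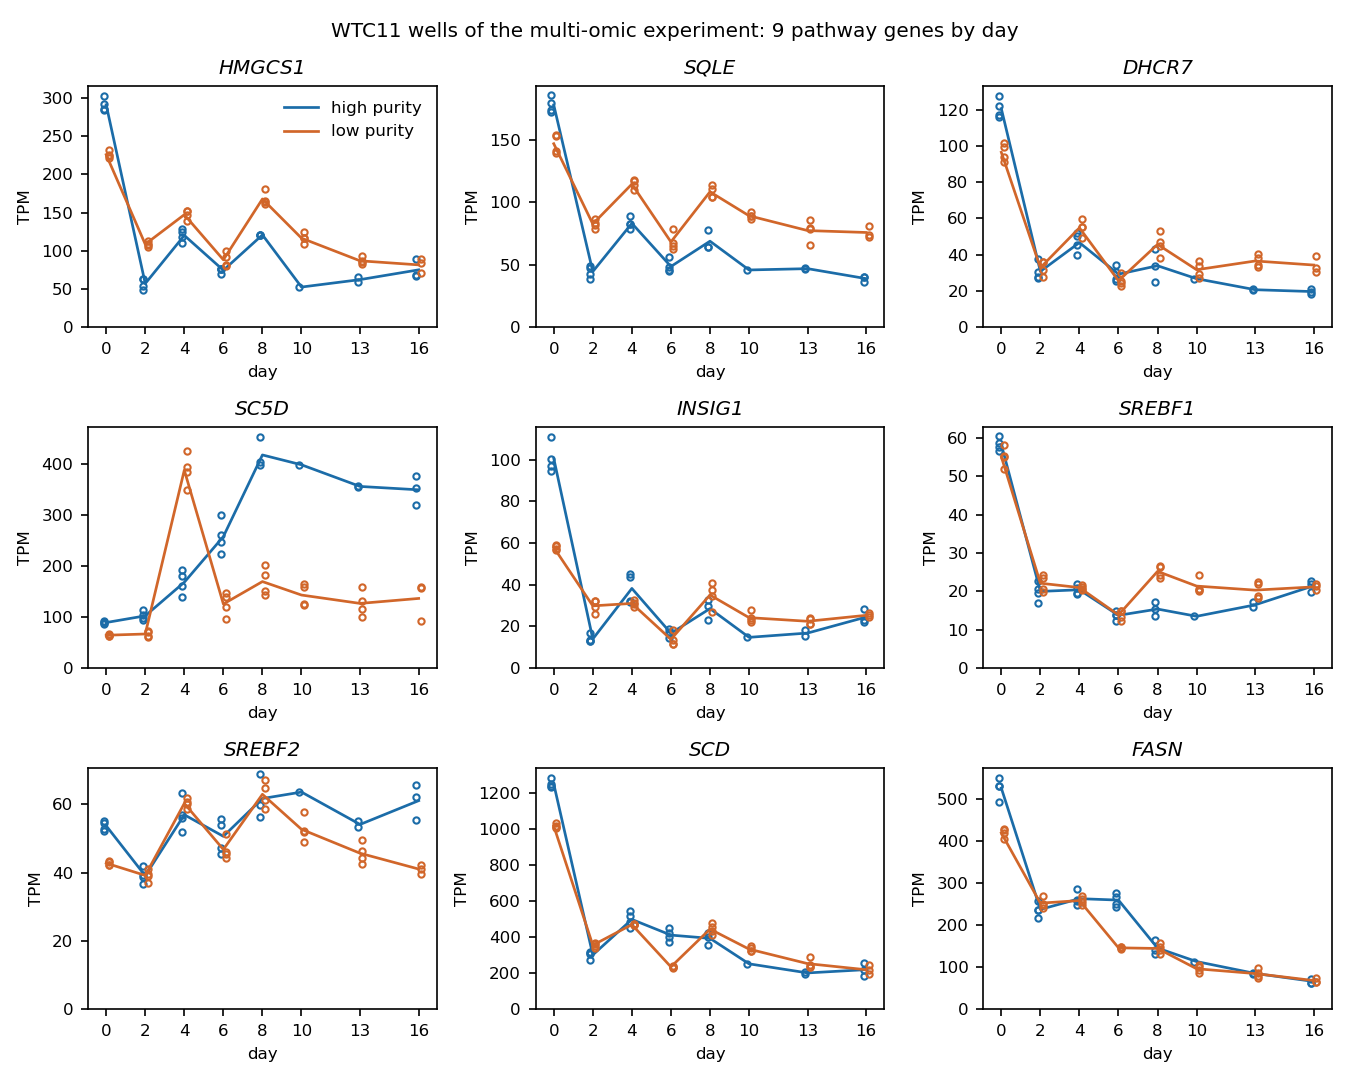
Level of selected cholesterol and fatty acid genes by day in the multi-omic WTC11 wells, in TPM from 0 on a linear axis, with 1 point per well and lines through the means of the high (blue) and low (orange) purity differentiations. HMGCS1 fell from 291 TPM on day 0 to 57.0 TPM on day 2 in high purity wells and from 226 to 108 TPM in low purity wells, and SC5D ended at 349 against 136 TPM.

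The first question was whether the classes differed on the same day. On day 0, the day CHIR99021 was added, listed genes were higher in the high purity wells: 21 of 31 passed the test (limma, Benjamini-Hochberg adjusted p under 0.05 over all tested genes) as higher and 0 as lower, while 9.29% of all tested genes were called higher and 5.35% lower. The median log2 fold change was 0.27, against 0.01 for all genes, and none reached 2-fold. All groups took part: 5 of 8 mevalonate, 6 of 11 squalene to cholesterol, 4 of 5 control and 6 of 7 fatty acid genes were higher. INSIG1 stood at 100.5, 94.5, 111 and 96.8 TPM in high and 57.3, 56.5, 59.1 and 58.8 TPM in low purity wells (0.72 ± 0.11, adjusted p 9.22e-06; here and below, log2 fold change ± SE and limma adjusted p). FDPS, which makes farnesyl diphosphate, was at 104, 90.2, 99.3 and 93.1 TPM in high and 54.4, 63.5, 61.7 and 66.9 TPM in low purity wells (0.58 ± 0.10, adjusted p 8.86e-05). These genes had the largest differences on day 0, and in both every high purity well lay above every low purity well. HMGCS1 was at 284, 292, 303 and 286 TPM in high and 232, 224, 221 and 226 TPM in low purity wells (0.30 ± 0.07, adjusted p 0.00285). SQLE, squalene epoxidase, was at 172, 174, 186 and 179.7 TPM in high and 153, 139, 141 and 154 TPM in low purity wells (0.21 ± 0.07, adjusted p 0.0212). Both enzymes were separated between the classes without overlap. SREBF2 was at 52.8, 52.2, 55.2 and 54.7 TPM in high and 42.3, 43.1, 42.3 and 43.4 TPM in low purity wells (0.26 ± 0.06, adjusted p 0.00218). STARD4, a sterol carrier, was at 16.2, 19.0, 19.4 and 17.6 TPM in high and 13.2, 11.8, 11.5 and 10.5 TPM in low purity wells (0.53 ± 0.11, adjusted p 0.000553). Both genes were higher in every high purity well than in any low purity well. The other regulator gene, SREBF1, did not pass the test (0.02, adjusted p 0.982). SCD was at 1247, 1233, 1283 and 1236 TPM in high and 1016, 1006, 1012 and 1032 TPM in low purity wells (0.24 ± 0.06, adjusted p 0.00269). FASN was at 531, 493, 549 and 530.4 TPM in high and 427, 404, 428 and 418 TPM in low purity wells (0.26 ± 0.06, adjusted p 0.00174). FADS2, a desaturase of polyunsaturated fatty acids, was at 374, 379.7, 385 and 380.2 TPM in high and 307, 296, 309 and 297 TPM in low purity wells (0.27 ± 0.08, adjusted p 0.0152). SCD, FASN and FADS2 thus differed by less on the log2 scale than INSIG1 and FDPS, as HMGCS1 and SQLE did, and again with no overlap. Over all 31 genes, scaled TPM of the wells did not overlap for 25, all higher in high purity, against 12.5% of all genes. Beside this, 1 of 8 pluripotency markers was called higher and 1 lower, and 1 of 8 proliferation markers higher and 1 lower, and here and below the part of such marker differences in a result was not tested. With RLE size factors in place of TMM, 14 genes passed on day 0. The call of SQLE was lost without high purity well 4 or low purity wells 2 or 3 (adjusted p up to 0.0754).

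On day 2 the order was the opposite: 18 of 31 genes were lower in high purity wells and 3 were higher, where 17.5% and 20% of all genes were called in those directions, and the median log2 fold change was -0.27 (all genes 0.00). The lower genes were 4 of 8 mevalonate, 7 of 11 squalene to cholesterol, 1 of 5 control and 6 of 7 fatty acid genes. IDI1, which isomerises isopentenyl diphosphate, was at 13.0, 12.1, 11.9 and 14.4 TPM in high and 28.0, 28.0, 31.1 and 29.5 TPM in low purity wells (-1.06 ± 0.08, adjusted p 9.84e-15). INSIG1 was at 12.8, 13.0, 13.4 and 16.7 TPM in high and 32.0, 32.0, 26.2 and 29.3 TPM in low purity wells (-0.98 ± 0.11, adjusted p 1.05e-09), and ACAT2, which joins acetyl-CoA at the entry of the pathway, changed by as much (-0.98 ± 0.09, adjusted p 5.23e-12). High purity wells of these 3 genes lay below all low purity wells. HMGCS1 was at 62.7, 48.8, 53.2 and 63.3 TPM in high and 113, 107, 105 and 109 TPM in low purity wells (-0.86 ± 0.07, adjusted p 4.58e-13). SQLE was at 47.2, 42.9, 38.8 and 49.0 TPM in high and 83.7, 78.4, 82.1 and 86.2 TPM in low purity wells (-0.82 ± 0.07, adjusted p 1.05e-13). Both had been higher in the high purity wells on day 0. FADS2 was at 96.1, 98.7, 85.6 and 92.4 TPM in high and 148, 132, 129 and 143 TPM in low purity wells (-0.50 ± 0.08, adjusted p 1.46e-06). SCD was at 304, 315, 274 and 309 TPM in high and 365, 352, 338 and 363 TPM in low purity wells (-0.17 ± 0.06, adjusted p 0.0142). Their wells did not overlap either, and the call of SCD was lost without high purity well 3 (adjusted p 0.0743). Among the 3 higher genes, PMVK, phosphomevalonate kinase, was at 15.7, 12.4, 18.4 and 17.8 TPM in high and 11.7, 10.97, 9.18 and 5.61 TPM in low purity wells (0.81 ± 0.15, adjusted p 2.91e-05). SC5D, the desaturase near the end of the cholesterol branch, was at 97.5, 113, 105 and 93.9 TPM in high and 60.9, 63.0, 71.7 and 71.4 TPM in low purity wells (0.68 ± 0.13, adjusted p 3.36e-05). The third was SCAP at 0.49. Neither SREBF1 (-0.08, adjusted p 0.492) nor SREBF2 (0.06, adjusted p 0.478) passed. Wells did not overlap for 16 genes lower and 3 genes higher in high purity, against 15.7% and 19.0% of all genes. Of 8 pluripotency markers, 6 were higher in high purity wells on that day, with sums of 2445 to 2658 against 1536 to 1612 TPM, and 4 of 8 proliferation markers were lower and 2 higher.

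On day 4, 16 of 31 genes were again lower and 2 higher in high purity wells (all genes 17.8% and 19.0%), with a median of -0.28. SC5D, higher on day 2, was now the gene with the largest deficit, at 192, 139, 161 and 179.9 TPM in high and 424, 384, 349 and 393 TPM in low purity wells (-1.20 ± 0.13, adjusted p 1.65e-10). STARD4 was at 9.62, 6.60, 7.47 and 10.3 TPM in high and 14.2, 13.3, 12.0 and 13.3 TPM in low purity wells (-0.59 ± 0.11, adjusted p 1.89e-05). No high purity well reached the lowest low purity well in either gene. HMGCS1 was at 125, 109.5, 118 and 129 TPM in high and 151, 152, 147 and 138 TPM in low purity wells (-0.29 ± 0.07, adjusted p 0.00139). SQLE was at 89.1, 78.2, 82.3 and 82.9 TPM in high and 117, 118, 110.0 and 114 TPM in low purity wells (-0.45 ± 0.07, adjusted p 2.46e-07). These sterol enzymes stayed lower, but by a smaller margin than on day 2. The higher genes both belonged to the SREBP control group: INSIG1 was at 43.8, 31.7, 45.3 and 32.1 TPM in high and 30.8, 32.9, 29.1 and 31.4 TPM in low purity wells (0.28 ± 0.11, adjusted p 0.0448). SCAP was at 39.6, 32.4, 44.9 and 37.4 TPM in high and 28.8, 29.5, 31.5 and 30.6 TPM in low purity wells (0.34 ± 0.07, adjusted p 8.11e-05). INSIG1 wells overlapped in TPM, and its call was lost without any of 4 wells (high purity 1 or 3, low purity 1 or 3; adjusted p up to 0.178) and without TMM scaling (0.0744), whereas SCAP wells did not overlap. SCD, FASN, FADS2 and ACLY did not pass, with log2 fold changes of 0.09, 0.03, -0.13 and 0.06. Beside this, 9 of 11 cardiomyocyte markers and 7 of 8 fibroblast and stroma markers were lower in high purity wells, with cardiomyocyte sums of 192 to 261 against 1744 to 1993 TPM.

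On day 6 both directions were called in the enzyme groups. Of 31 genes, 10 were higher and 9 lower in high purity wells (all genes 20.4% and 19.4%), with a median of 0.03. Fatty acid genes made up 4 of the higher genes. FASN was at 268, 277, 249.98 and 243 TPM in high and 148, 147, 143 and 145 TPM in low purity wells (0.81 ± 0.06, adjusted p 5.52e-15). SCD was at 421, 449.6, 401 and 371 TPM in high and 241, 236, 228 and 231 TPM in low purity wells (0.79 ± 0.06, adjusted p 1.24e-15). FADS2 was at 132, 153, 134 and 146 TPM in high and 109, 98.5, 102 and 93.9 TPM in low purity wells (0.46 ± 0.08, adjusted p 4.04e-06). The classes did not overlap in any of these genes, and ACLY was higher as well (0.33). In the mevalonate group, 4 of 8 genes were lower and 2 higher. IDI1 was at 17.9, 19.99, 17.8 and 14.0 TPM in high and 25.6, 24.8, 23.96 and 30.3 TPM in low purity wells (-0.58 ± 0.08, adjusted p 6.60e-08). HMGCS1 was at 75.5, 76.6, 75.7 and 69.7 TPM in high and 91.7, 81.4, 80.1 and 99.3 TPM in low purity wells (-0.25 ± 0.07, adjusted p 0.00459). SQLE was at 55.7, 45.4, 48.0 and 45.0 TPM in high and 67.3, 62.7, 64.7 and 78.2 TPM in low purity wells (-0.50 ± 0.07, adjusted p 3.03e-08). These 3 sterol enzymes were lower in the same wells in which FASN, SCD, FADS2 and ACLY were higher. Other sterol enzymes went the opposite way: MVK (0.45), GGPS1 (0.40), FDFT1 (0.16) and TM7SF2 (0.55) were called higher. The call of MVK was lost without high purity wells 2 or 4 or low purity wells 1 or 4 (adjusted p up to 0.1). That of FDFT1 was lost without high purity well 4 or low purity wells 1, 2 or 3 (up to 0.209). In the fatty acid group, ELOVL6, an elongase, was at 43.4, 40.9, 37.9 and 37.0 TPM in high and 47.6, 44.1, 45.5 and 47.6 TPM in low purity wells (-0.23 ± 0.05, adjusted p 0.000441), and ACACA was called lower as well (-0.39); neither gene's wells overlapped. The call of HMGCS1 was lost without low purity well 4 (adjusted p 0.051). STARD4 was at 6.26, 6.45, 6.22 and 3.78 TPM in high and 7.93, 8.32, 7.24 and 9.65 TPM in low purity wells (-0.50 ± 0.11, adjusted p 0.000194). SC5D was at 299.9, 246, 261 and 223 TPM in high and 139, 147, 119.9 and 95.9 TPM in low purity wells (1.03 ± 0.13, adjusted p 8.76e-09), so that it was back above the low purity wells. The mean TPM of low purity wells was lower on day 6 than on day 4 for each of these 9 genes given by well. Of 11 cardiomyocyte markers, 5 were higher and 1 lower in high purity, with sums of 3154 to 5935 against 1880.4 to 3745 TPM, and 7 of 8 fibroblast and stroma markers were lower.

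**Figure D2:**
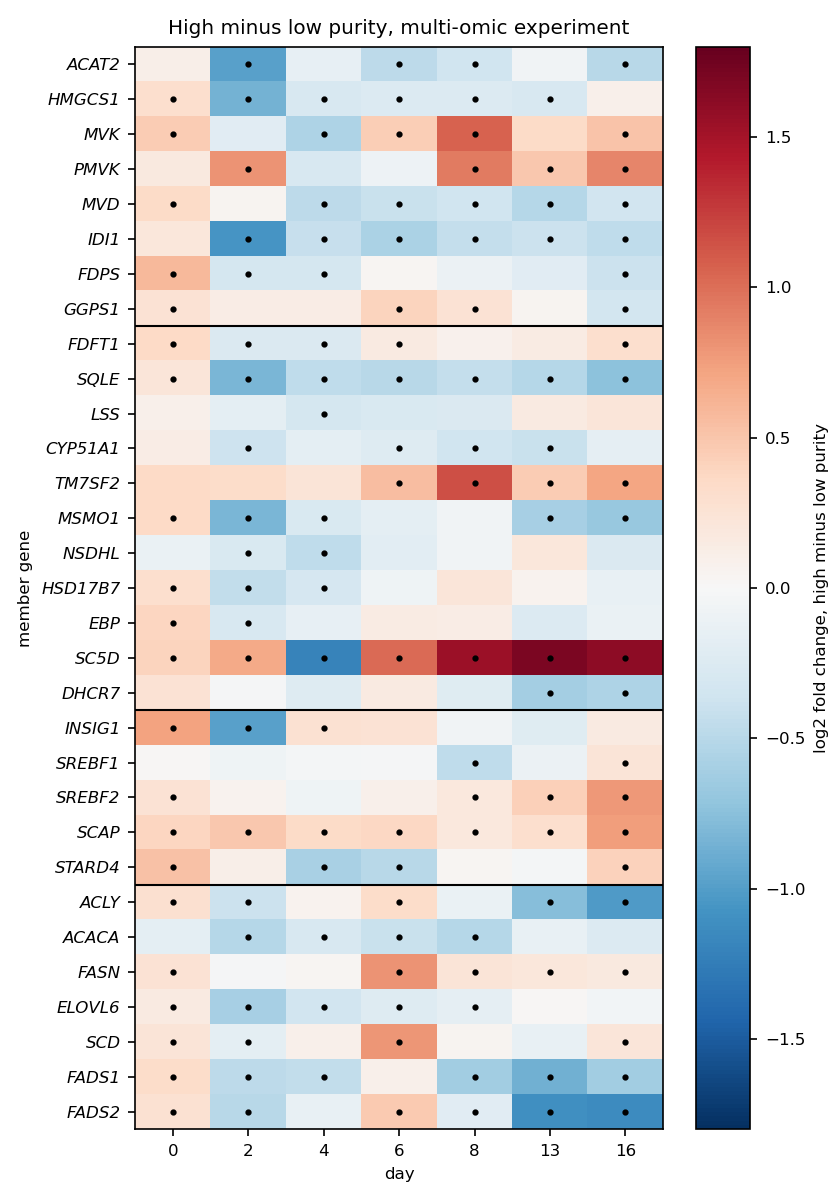
Log2 fold change of each of the 31 genes between high and low purity multi-omic wells, by day, with genes in rows by role and a mark on each value past the limma test. Colour shows the sign: 21 genes were higher on day 0, 18 lower on day 2, and SC5D was at 0.41 on day 0, -1.20 on day 4 and 1.69 on day 13.

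On day 8, 8 genes were higher and 11 lower (all genes 21.0% and 23.1%), with a median of -0.07. Without TMM scaling, the median of all genes moved by -0.154 and the split was 4 higher and 16 lower. SC5D was at 397, 453 and 403 TPM in high and 143, 201, 183 and 150.1 TPM in low purity wells (1.54 ± 0.14, adjusted p 1.27e-12). TM7SF2, a sterol reductase, was at 107, 96.3 and 75.4 TPM in high and 34.5, 54.9, 54.2 and 49.99 TPM in low purity wells (1.16 ± 0.15, adjusted p 7.33e-09). Both were more than 2-fold higher in high purity wells with no overlap, and so was MVK, mevalonate kinase (1.06). In the opposite direction, FADS1, a desaturase of polyunsaturated fatty acids, was at 133, 119 and 98.1 TPM in high and 205, 213, 210.0 and 214 TPM in low purity wells (-0.63 ± 0.07, adjusted p 1.18e-10). ACACA, acetyl-CoA carboxylase, was at 0.556, 0.225 and 0.352 TPM in high and 1.38, 1.07, 0.875 and 1.07 TPM in low purity wells (-0.51 ± 0.12, adjusted p 0.000514), on the few reads given above. FADS2 was at 126, 85.6 and 87.2 TPM in high and 130.1, 139, 133 and 131 TPM in low purity wells (-0.21 ± 0.08, adjusted p 0.0413). FADS2 had been higher in high purity wells on day 6; its call on day 8 was lost without any of 6 of the 7 wells, all but high purity well 1 (adjusted p up to 0.54). HMGCS1 was at 120.3, 121 and 121 TPM in high and 166, 180.2, 164 and 161 TPM in low purity wells (-0.24 ± 0.08, adjusted p 0.0114). SQLE was at 77.8, 64.5 and 64.1 TPM in high and 114, 111, 104 and 104 TPM in low purity wells (-0.42 ± 0.07, adjusted p 3.19e-06). Both sterol enzymes were below all low purity wells, and the call of HMGCS1 was lost without high purity well 1 or 2 (adjusted p up to 0.0933). SREBF1 was at 17.2, 13.7 and 15.3 TPM in high and 23.4, 26.4, 26.7 and 24.4 TPM in low purity wells (-0.46 ± 0.08, adjusted p 1.20e-05), with no overlap, its lowest log2 fold change of the 7 days. SREBF2 was at 56.2, 69.0 and 59.9 TPM in high and 58.5, 67.3, 61.2 and 64.8 TPM in low purity wells (0.20 ± 0.07, adjusted p 0.0134). FASN was at 164, 141 and 131 TPM in high and 131, 158, 148 and 140.4 TPM in low purity wells (0.24 ± 0.07, adjusted p 0.0028). SREBF2 and FASN overlapped in deposited TPM, and without TMM scaling they did not pass, at -0.03 (adjusted p 0.768) and 0.01 (0.992). The call of SREBF2 was also lost without high purity wells 2 or 4 or low purity well 1 (adjusted p up to 0.16). Of 11 cardiomyocyte markers, 10 were higher in high purity, with sums of 12998 to 15326 against 4517 to 7066 TPM, while 7 of 8 fibroblast and stroma and 7 of 8 proliferation markers were lower.

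Day 10 had 1 high purity well and no test. HMGCS1 was at 52.4 TPM in high and 108, 116, 117 and 124 TPM in low purity wells. In scaled TPM the high purity well was below all 4 low purity wells for 17 of 31 genes (36.2% of all genes) and above them for 8 (31.7%), which were MVK, PMVK, GGPS1, TM7SF2, SC5D, SREBF2, SCAP and FASN. In deposited TPM it was below them for 24 genes and above them for 4, with GGPS1 and SCAP below. The shares of all genes were not counted in deposited TPM. The TMM factor was 0.853 in the high purity well and 1.11 to 1.15 in the low purity wells. Without scaling, every gene of the high purity well is thus lower relative to the low purity wells.

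On day 13, with 2 high purity wells, 6 genes were higher and 10 lower (all genes 16.9% and 19.0%), with a median of -0.10, and without TMM scaling the median of all genes moved by -0.131 and the split was 2 and 15. SC5D was at 355 and 356 TPM in high and 101, 158, 131 and 117 TPM in low purity wells (1.69 ± 0.16, adjusted p 4.20e-12), its largest difference. PMVK was at 20.6 and 18.4 TPM in high and 12.0, 17.4, 16.5 and 16.7 TPM in low purity wells (0.49 ± 0.19, adjusted p 0.0376). FADS2 was at 29.5 and 36.7 TPM in high and 87.6, 78.5, 83.8 and 77.1 TPM in low purity wells (-1.10 ± 0.10, adjusted p 6.87e-13). FADS2 thus had a deficit of more than 2-fold, and the other desaturase, FADS1, was at 74.1 and 78.6 TPM in high and 159, 162, 167 and 154 TPM in low purity wells (-0.87 ± 0.08, adjusted p 5.75e-13). The call of PMVK was lost without TMM scaling (adjusted p 0.225) and without either high purity well or low purity well 1 (up to 0.227). Among sterol enzymes, HMGCS1 was at 58.7 and 65.7 TPM in high and 86.2, 93.3, 82.9 and 84.8 TPM in low purity wells (-0.29 ± 0.09, adjusted p 0.00961). SQLE was at 47.0 and 46.7 TPM in high and 85.7, 78.5, 79.1 and 66.0 TPM in low purity wells (-0.52 ± 0.08, adjusted p 1.11e-06). DHCR7, the reductase that ends cholesterol synthesis by one route, was at 20.8 and 20.5 TPM in high and 33.3, 38.2, 40.4 and 34.2 TPM in low purity wells (-0.61 ± 0.14, adjusted p 0.000537). These 3 sterol enzymes did not overlap between the classes in TPM, and the call of HMGCS1 was lost without high purity well 2 (adjusted p 0.198). SREBF2 was at 55.0 and 53.2 TPM in high and 42.6, 49.7, 46.3 and 44.2 TPM in low purity wells (0.43 ± 0.08, adjusted p 8.08e-06). FASN was at 82.7 and 86.8 TPM in high and 75.0, 97.7, 86.1 and 79.4 TPM in low purity wells (0.20 ± 0.07, adjusted p 0.0304), and its wells overlapped in deposited TPM, where the difference was 0.01 (adjusted p 0.972); its call was also lost without either high purity well or low purity wells 1 or 4 (up to 0.222). SREBF1 did not pass (-0.10, adjusted p 0.465).

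On day 16, the last day, 11 genes were higher and 11 lower in high purity wells (all genes 21.0% and 22.0%), with a median of -0.12, and without TMM scaling the median of all genes moved by -0.118, with 5 listed genes higher and 16 lower. Without low purity well 1, which was nearest to a well of day 13, 15 genes were called, 6 of them higher. The regulators were on the higher side: 4 of 5 control genes passed as higher and 0 as lower. SREBF2 was at 55.3, 65.8 and 62.2 TPM in high and 39.7, 42.3 and 41.1 TPM in low purity wells (0.78 ± 0.07, adjusted p 1.09e-12). SREBF1 was at 19.9, 22.7 and 21.9 TPM in high and 21.3, 20.4 and 21.8 TPM in low purity wells (0.23 ± 0.09, adjusted p 0.0333). STARD4 was at 12.9, 18.4 and 16.3 TPM in high and 11.6, 13.4 and 15.6 TPM in low purity wells (0.42 ± 0.13, adjusted p 0.00513). SREBF2 was separated between the classes, whereas SREBF1 and STARD4 overlapped in deposited TPM and did not pass without TMM scaling (adjusted p 0.932 and 0.24). The call of STARD4 was also lost without low purity well 1 (0.0635), and that of SREBF1 without high purity wells 1 or 3 or low purity wells 1 or 2 (up to 0.107). Enzymes were divided. SC5D was at 319, 375 and 353 TPM in high and 92.5, 159 and 158 TPM in low purity wells (1.61 ± 0.15, adjusted p 1.78e-12), and PMVK at 20.8, 25.5 and 22.6 TPM in high and 17.4, 15.1 and 10.6 TPM in low purity wells (0.88 ± 0.18, adjusted p 6.17e-05). SQLE, in contrast, was at 36.0, 40.5 and 39.9 TPM in high and 73.6, 81.3 and 72.4 TPM in low purity wells (-0.73 ± 0.08, adjusted p 4.94e-11). DHCR7 was at 18.1, 21.2 and 19.5 TPM in high and 32.9, 39.5 and 30.5 TPM in low purity wells (-0.56 ± 0.13, adjusted p 0.000484). SQLE and DHCR7 were lower in high purity wells without overlap, and HMGCS1 no longer passed (0.09, adjusted p 0.405). In the fatty acid branch, FADS2 was at 26.2, 32.1 and 35.6 TPM in high and 91.0, 75.4 and 74.7 TPM in low purity wells (-1.13 ± 0.09, adjusted p 2.82e-14). ACLY was at 52.8, 61.8 and 51.3 TPM in high and 137, 131 and 127 TPM in low purity wells (-1.02 ± 0.07, adjusted p 1.02e-16). Both were more than 2-fold lower. SCD was at 185, 254 and 217 TPM in high and 194, 243 and 218 TPM in low purity wells (0.22 ± 0.07, adjusted p 0.0052). FASN was at 62.0, 72.8 and 62.3 TPM in high and 63.3, 74.8 and 65.6 TPM in low purity wells (0.17 ± 0.07, adjusted p 0.0461). SCD and FASN overlapped in deposited TPM and did not pass without TMM scaling, where SCD was at -0.002 and FASN at -0.05 (adjusted p 1 and 0.705). The call of SCD was also lost without high purity well 2 or low purity well 1 (up to 0.12), and that of FASN without high purity wells 1 or 2 or low purity wells 1 or 3 (up to 0.245). On days 13 and 16, 8 and 8 of 11 cardiomyocyte markers were higher in high purity wells, 7 and 8 of 8 fibroblast and stroma markers were lower, and 6 and 7 of 8 proliferation markers were lower. On day 16, 0 of 6 epicardium markers were higher and 6 lower, 5 and 2 of 8 endothelium markers, 2 and 3 of 8 endoderm markers tested, and 2 and 0 of 7 primitive streak markers tested.

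Over the 7 tested days, SCAP passed as higher in high purity wells on all 7 days, from 0.19 on day 8 to 0.75 on day 16, but not without TMM scaling on days 8 (-0.03, adjusted p 0.847) and 13 (0.11, 0.434). SC5D passed on all 7 days, 6 times as higher and once, on day 4, as lower. SQLE passed on all 7 days, once as higher on day 0 and then 6 times as lower. IDI1 passed as lower on 6 days and never as higher, and HMGCS1 as higher once and lower 5 times. PMVK and TM7SF2 passed as higher on 4 days each and never as lower. The day 13 call of TM7SF2 was lost without low purity well 2 and without TMM scaling (adjusted p 0.214). Some of these calls rest on single wells: on day 13 those of IDI1, TM7SF2 and SCAP were lost without high purity well 3 (adjusted p up to 0.0587, 0.248 and 0.415), on day 0 that of SC5D without high purity wells 2 or 4 or low purity wells 2, 3 or 4 (up to 0.0683), and on day 8 that of SCAP without high purity wells 2 or 4 or low purity wells 1 or 4 (up to 0.186). MVD, the decarboxylase of the mevalonate steps, passed as higher on day 0 and lower on 5 later days, but lost its call without at least 1 well on each of days 0, 6, 8, 13 and 16. EBP, a sterol isomerase, NSDHL, a sterol dehydrogenase, and HSD17B7, a sterol reductase, passed on 2, 2 and 3 days. On day 2 the call of EBP was lost without high purity well 3 (adjusted p 0.0891). That of NSDHL was lost on day 2 without high purity wells 1 or 2 or low purity wells 1, 2 or 4 (up to 0.171). HSD17B7 lost its day 0 call without high purity wells 2 or 4 or any low purity well (up to 0.228). It lost its day 4 call without high purity well 2 or low purity wells 3 or 4 (up to 0.0616).

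The second question was how the genes moved between collection days within a differentiation. From day 0 to day 2 nearly all fell. In high purity wells 28 of 31 genes fell and 1 rose (all genes 25.2% and 25.5%), 21 falling by at least 2-fold (all genes 7.04%), with a median log2 change of -1.56. In low purity wells 26 fell and 3 rose (all genes 26.4% and 27.0%), 13 falling by at least 2-fold (all genes 6.87%), with a median of -0.93. INSIG1 fell by 2.80 in high and 1.10 in low purity wells, ACAT2 by 2.76 and 1.66, and HMGCS1 by 2.37 and 1.21 (SE 0.07 in each). DHCR7 fell by 1.98 and 1.70 and SCD by 2.09 and 1.68. GGPS1, which makes geranylgeranyl diphosphate for protein prenylation, was the gene that rose in both, by 0.37 and 0.50. The calls were the same in both differentiations for 27 of 31 genes and opposite for FADS1 and HSD17B7, which fell in high and rose in low purity wells. How many of all genes had the same call in both was not counted, so whether this agreement is particular to the listed genes is not known.

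From day 2 to day 4, 20 genes rose and 4 fell in high purity wells (all genes 23.5% and 22.8%; median 0.47), and 21 rose and 3 fell in low purity wells (25.6% and 24%; 0.38). HMGCS1 rose by 0.95 and 0.38, and INSIG1 by 1.27 in high purity wells. SC5D rose by 2.46 in low purity wells. From day 4 to day 6, 21 genes fell and 3 rose in high purity wells (all genes 18.6% and 14.4%; median -0.41), and 27 fell and 0 rose in low purity wells (19.0% and 16.3%; -0.68). MVK and SC5D moved in opposite directions, and SC5D fell by 1.69 in low purity wells while it rose by 0.53 in high purity wells. From day 6 to day 8, when the medium held insulin, 23 genes rose and 4 fell in high purity wells (all genes 14.5% and 15.6%; median 0.48), and 23 rose and 0 fell in low purity wells (14.0% and 11.7%; 0.42). The 4 genes that fell in high purity wells were all fatty acid genes, FASN (log2 change -0.59), FADS1 (-0.35), ACLY (-0.29) and FADS2 (-0.28, lost without high purity well 2 of day 8, adjusted p 0.257), while SCD (0.18) and ELOVL6 (0.23) rose there. Neither passed without TMM scaling (adjusted p 0.568 and 0.997), and the call of SCD was lost without wells 1 or 4 of either day (adjusted p up to 0.0828). In low purity wells 5 of 7 fatty acid genes rose, but the calls of ACLY and ELOVL6 were lost without TMM scaling (adjusted p 0.14 and 0.0605), without low purity wells 1, 2 or 3 of day 6 or 2, 3 or 4 of day 8 for ACLY (up to 0.15), and without low purity well 2 of day 6 or 3 or 4 of day 8 for ELOVL6 (up to 0.0841). From day 8 to day 16, 21 genes fell and 4 rose in high purity wells (all genes 20.3% and 20.7%; median -0.57), and 21 fell and 0 rose in low purity wells (16.2% and 16.1%; -0.38). Neighbouring steps share the wells of the day between them. SREBF1 rose by 0.67 in high purity wells, where STARD4 rose by 0.42, SCAP by 0.26 and SREBF2 by 0.20, and in low purity wells SREBF2 fell by 0.38 and SCAP by 0.29. Without TMM scaling the median of all genes moved by -0.164 from day 6 to day 8 in high purity wells, where 13 listed genes rose and 5 fell, and by -0.153 from day 8 to day 16 in low purity wells, where 28 fell; in high purity wells from day 8 to day 16, 1 rose and 22 fell, and STARD4, SCAP and SREBF2 did not pass (adjusted p 0.228, 0.732 and 0.953), with SREBF2 at -0.01. With TMM scaling, the calls of SCAP and SREBF2 at that step were lost without high purity well 1 of day 8, and without high purity well 2 (SCAP) or 3 (SREBF2) of day 16 (adjusted p up to 0.144 and 0.382).

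**Figure D3:**
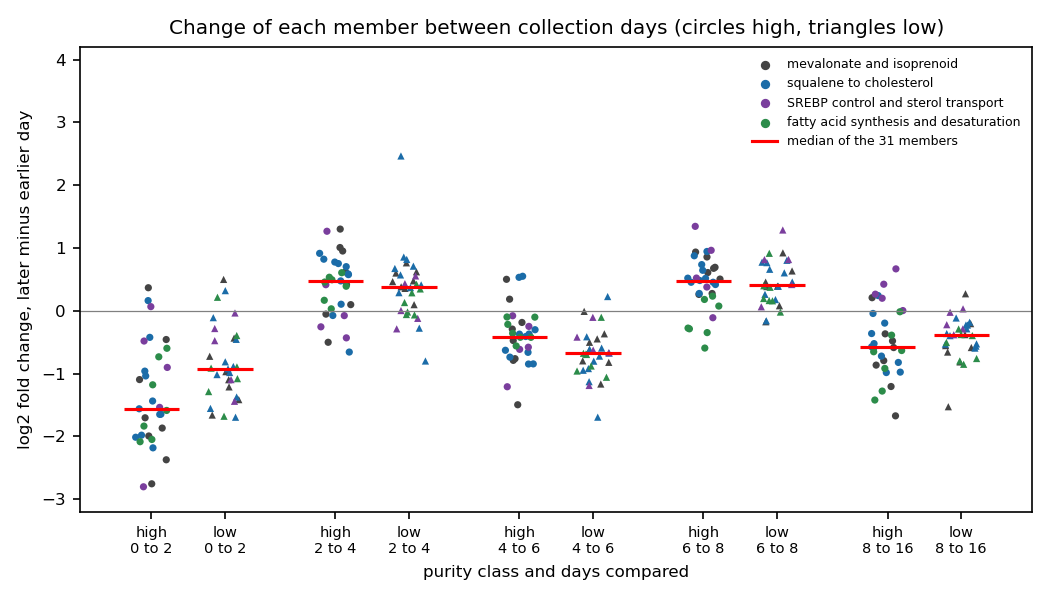
Log2 change of each of the 31 genes between collection days (vertical axis) for the high (circles) and low (triangles) purity multi-omic differentiation, coloured by role, with the median as a red bar. Medians were -1.56 and -0.93 from day 0 to day 2, above 0 from day 2 to day 4 and from day 6 to day 8, and below 0 from day 4 to day 6 and from day 8 to day 16.

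Whether a step differed between the differentiations was tested directly, as the high purity step minus the low purity step. From day 0 to day 2 the difference passed for 20 of 31 genes, 19 of which fell further, or rose less, in high purity wells (all genes 9.06%) and 1 the other way (all genes 9.57%). The median difference was -0.51. INSIG1 differed most, by -1.71 ± 0.16 (SE; adjusted p 4.39e-11), followed by IDI1 (-1.27 ± 0.11), MSMO1, a sterol methyl oxidase (-1.19 ± 0.15), and HMGCS1 (-1.16 ± 0.10). These differences rest on the same wells as the comparisons of days 0 and 2. From day 2 to day 4, 14 genes differed, 10 with a larger rise in high purity wells (all genes 14.0%), among them INSIG1 (1.26 ± 0.16) and ACAT2 (0.84 ± 0.13), and 4 the other way (all genes 16.3%), led by SC5D (-1.88 ± 0.18). From day 4 to day 6, 8 genes differed, all with a higher log2 change (a rise or a smaller fall) in high purity wells (all genes 12.0%): SC5D (2.23 ± 0.18), MVK, FDFT1, which makes squalene, and 5 fatty acid genes, FASN (0.78 ± 0.09), SCD (0.70 ± 0.08), FADS2, FADS1 and ACLY, whose call was lost without low purity well 4 of day 4 (adjusted p 0.0515) and without TMM scaling (0.0567). From day 6 to day 8, 9 genes differed. The same 5 fatty acid genes and SREBF1 were the 6 with a lower log2 change in high purity wells (all genes 9.16%), with SCD at -0.74 ± 0.08, while PMVK, TM7SF2 and STARD4 were higher (all genes 7.77%). Without TMM scaling, 1 was higher and 12 were lower at that step, and the median of all genes moved by -0.172, with TM7SF2 and STARD4 no longer past the test (adjusted p 0.199 and 0.231). From day 8 to day 16, 9 genes differed (all genes 26.8%), with SREBF1 (0.69 ± 0.12), SREBF2 (0.58 ± 0.10), SCAP (0.55 ± 0.11) and HMGCS1 higher and FADS2 (-0.92 ± 0.12), ACLY (-0.90 ± 0.09), MSMO1, GGPS1 and SQLE lower in their log2 change in high purity wells. Without high purity well 1 of day 16, 14 genes differed at that step, and without low purity well 1 of day 16, 8. The call of HMGCS1 was lost without high purity well 2 or low purity well 1 of day 16 or high purity wells 1 or 2 of day 8 (adjusted p up to 0.148), and that of SQLE without well 2 of either class on day 16 or high purity wells 1 or 4 of day 8 (up to 0.091).

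Across the 16 group means of the multi-omic experiment, each gene was also correlated with the mean of the other mevalonate and squalene to cholesterol genes, on the log2 scale. The groups share a culture and a time course, so this is a description. EBP (r = 0.952), FDFT1 (0.945) and SCD (0.941) lay closest to the mean, and 18 of 31 genes had r over 0.8, with a median of 0.845. How many of all genes had r over 0.8 with this mean was not counted in either experiment. The 18 included 4 fatty acid genes, SCD, ELOVL6 (0.926), FADS2 (0.845) and ACLY (0.812). SREBF2 was at 0.196, and the 2 negative values were those of GGPS1 (-0.115, near 0) and SC5D (-0.326). In the 24 RNA-only libraries the median r was 0.923, 22 genes were over 0.8, and the same pair of genes was negative, GGPS1 at -0.097 and SC5D at -0.301.

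In the RNA-only experiment, H9 low purity on day 3 had a summed cardiomyocyte marker level of 519.7 TPM, against 15.5 to 97.8 in the other 5 differentiations at that stage, and a primitive streak marker sum of 25.8 TPM, against 396 to 771. IMR90-4 low purity on day 7 had a cardiomyocyte marker sum of 5519 TPM, above the 4732 TPM of IMR90-4 high purity, while H9 low purity had 367 TPM. With all libraries kept, the first step was again a fall. Between day 0 and the second stage, day 2 or 3, 27 of 31 genes fell and 1 rose (edgeR quasi-likelihood with the differentiation as block, adjusted p under 0.05; all genes 25.6% and 25.3%), 21 falling by at least 2-fold (all genes 10.8%), with a median log2 change of -1.27. In all 6 differentiations 27 genes were lower at the second stage than on day 0, a count for which the share of all genes was not taken. HMGCS1 was at 153, 161 and 210.3 TPM in high and 258, 161 and 166 TPM in low purity H9, IMR90-4 and WTC11 on day 0. At the second stage it was at 33.7, 52.2 and 23.1 TPM in high and 50.5, 46.5 and 18.3 TPM in low purity H9, IMR90-4 and WTC11, a log2 change of -2.16 ± 0.22 (SE; adjusted p 5.49e-07). All 6 libraries of the second stage were below the lowest of day 0. SQLE fell by 1.59 ± 0.17, DHCR7 by 1.97 ± 0.18, ACAT2 by 2.36 ± 0.25 and INSIG1 by 1.91 ± 0.19, whereas SREBF2 fell by 0.25 ± 0.10, a call that was lost whichever differentiation was left out (adjusted p up to 0.177). GGPS1 rose by 0.33 ± 0.08, as it did in the multi-omic wells. From the second to the third stage 4 genes fell (all genes 9.65%), 3 of the fatty acid group, FASN (-0.73 ± 0.17), ACLY (-0.58 ± 0.16) and ACACA (-0.51 ± 0.17), and CYP51A1 (-0.39 ± 0.12). Leaving out a differentiation gave 1 to 5 calls, with 1 call each without IMR90-4 high purity, IMR90-4 low purity or WTC11 high purity and 2 without H9 high purity. From the third to the fourth stage SREBF1 fell (-0.62 ± 0.13, adjusted p 0.00796; all genes 2.44%), a call that was lost without either IMR90-4 differentiation (adjusted p up to 0.0664). Without H9 low purity, which stood apart in its markers on day 3, 27 genes were called at the first step, 5 at the second and 4 at the third, 1, 1 and 2 of them as rising.

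**Figure D4:**
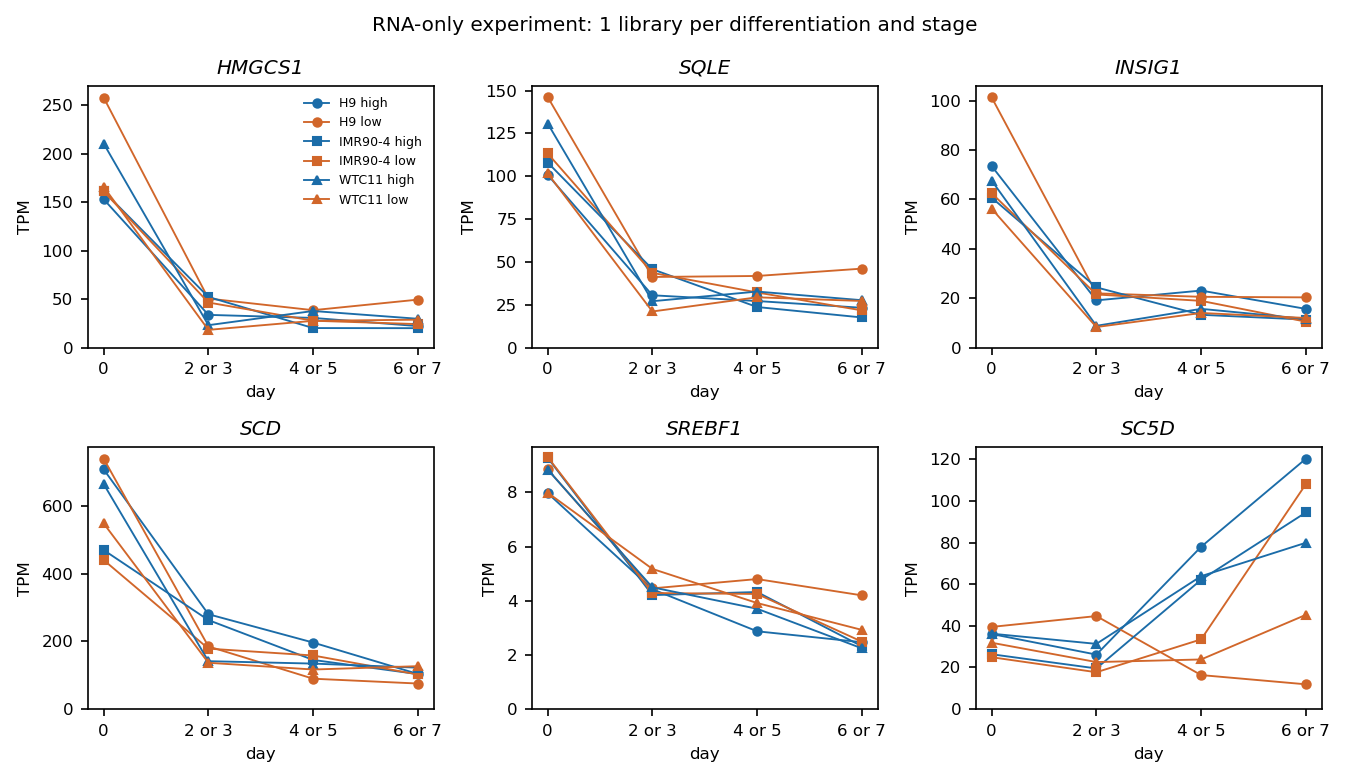
Level of 6 of the genes in the RNA-only libraries, in TPM from 0 on a linear axis, against the collection day, with 1 library per point, lines joining a differentiation, symbols for the cell line and colours for high (blue) and low (orange) purity. HMGCS1 was between 153 and 258 TPM on day 0 and between 18.3 and 52.2 TPM at the second stage, and SC5D was lowest at the last stage in H9 low purity, at 11.9 TPM.

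The lines differed in direction between the second and the third stage, in single libraries without a test. In both WTC11 differentiations, sampled on days 2 and 4, 14 of 31 genes were higher on the later day, 11 of them sterol enzymes. In both IMR90-4 differentiations, sampled on days 3 and 5, 23 of 31 were lower. The 12 genes common to those sets were ACAT2, HMGCS1, IDI1, FDFT1, SQLE, LSS, MSMO1, NSDHL, EBP, INSIG1, SREBF2 and ELOVL6. The share of all genes with these signs was not counted, so whether the counts are particular to the listed genes is not known. Median log2 changes were 0.09 and -0.09 in WTC11 high and low purity, -0.54 and -0.20 in IMR90-4, and -0.16 and -0.26 in H9. Lines and collection days cannot be told apart here.

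The comparison of purity classes across lines found no listed gene past the test. At each of the 4 stages, and for their mean, 0 of 31 genes passed in the edgeR test. At an unadjusted p under 0.05 there were 0, 5, 4 and 8 genes at stages 1 to 4 and 9 for the mean, against 1.48%, 7.95%, 7.54%, 12.1% and 15.8% of all genes. DESeq2 called 0, 0, 0 and 2 genes (ACAT2 and ACLY) and 4 for the mean (ACAT2, FDPS, SREBF2 and TM7SF2), against 0.00419%, 0.771%, 0.818%, 2.57% and 6.72% of the genes to which it gave an adjusted p. Among all genes edgeR called 0 at each stage and 1 for the mean (0.00419%). Leaving out H9, or either other line, did not bring a gene past the threshold. SC5D at the third stage was at 78.0, 62.1 and 63.9 TPM in high and 16.3, 33.5 and 23.8 TPM in low purity H9, IMR90-4 and WTC11 (1.40 ± 0.48, adjusted p 0.538), higher in the high purity differentiation of each line. At the fourth stage SC5D was at 120.3, 94.5 and 79.9 TPM in high and 11.9, 108 and 45.3 TPM in low purity H9, IMR90-4 and WTC11 (1.26 ± 0.52, adjusted p 0.378), and the low purity IMR90-4 library was above the high purity one. ACAT2 at the fourth stage was at 13.9, 11.6 and 22.2 TPM in high and 34.2, 21.5 and 32.6 TPM in low purity H9, IMR90-4 and WTC11 (-0.93 ± 0.21, adjusted p 0.216), lower in high purity in all 3 lines. At the fourth stage 10 of 31 genes were lower in high purity in all 3 lines and 2 were higher (FDFT1 and SREBF2), against 16.3% and 15.4% of 23703 genes. At the second stage 8 were higher and 2 lower (18.1% and 11.9% of genes), on day 0 SREBF2 alone was higher and none lower (11.3% and 10.2%), and at the third stage 3 were higher and 2 lower (21.5% and 7.3%).

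WTC11 at passage 69, low purity, was present in both experiments, with different library kits and cultures. In the multi-omic wells HMGCS1 went from a mean of 226 TPM on day 0 to 108 TPM on day 2, and in the RNA-only libraries from 166 to 18.3 TPM. SC5D on day 4 was at 388 TPM in the multi-omic wells and at 23.8 TPM in the RNA-only library. The median log2 change of the 31 genes, on TPM + 1, was -0.76 and -1.76 from day 0 to day 2, 0.44 and -0.09 from day 2 to day 4, and -0.62 and 0.06 from day 4 to day 6, in the multi-omic and the RNA-only experiment. The high purity differentiations, of passages 52 and 81, had medians of -1.53 and -1.85, 0.59 and 0.09, and -0.33 and -0.22 at these steps. The first fall was present in all 4, and the rise from day 2 to day 4 was smaller or of the other sign in the RNA-only libraries.

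Other genes of the pathway were taken from 3 further lists. Of 7 genes that process or degrade SREBP pathway proteins, 4 were higher and 0 lower in high purity multi-omic wells on day 0, 5 and 1 on day 2, and 3 and 2 on day 16. INSIG2, the second retention protein, was higher by 1.20 ± 0.14 (SE; adjusted p 7.52e-08) on day 0 and by 1.86 ± 0.14 (SE; adjusted p 3.29e-14) on day 2, the day on which INSIG1 was lower. Of 16 other genes of lipid synthesis, 2 were higher and 7 lower on day 2 and 8 and 6 on day 13 (all genes 16.9% and 19.0% on day 13). ACSL1, which activates long-chain fatty acids, was lower on day 4 (-1.24) and higher on days 8 (1.59), 13 (1.32) and 16 (1.38). ACACB, the acetyl-CoA carboxylase of oxidative tissues such as heart, was higher on days 13 (1.26) and 16 (1.51), GPAM, an acyltransferase of triglyceride synthesis, on day 6 (1.25), and ME1, malic enzyme, was lower on days 8 (-1.73) and 13 (-1.28). ELOVL1, an elongase, was lower on day 16 (-1.52). Of 10 genes of the liver X receptor pathway and sterol export, 5 were higher and 1 lower on day 6 (all genes 20.4% and 19.4%). On day 16, 2 were higher and 3 lower, near the shares of all genes. MYLIP, a ubiquitin ligase of lipoprotein receptors, was lower on days 6 (-1.67), 8 (-1.33), 13 (-1.27) and 16 (-1.37), and the cholesterol exporter ABCA1 was higher on day 8 (1.15).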

How the data were processed

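The authors deposited featureCounts read counts and TPM values per gene and library for both experiments. Reads were processed with STAR 2.5.3a, featureCounts 2.0.3 and the hg38 build, per the submitters' processing notes, while annotation release, strand setting and filters are not given in the sources used here. Among the columns of the multi-omic counts, 0 of 56 matched the TPM column of the same name, 50 matched one of another name and 6 matched none. The counts were compared with read numbers recovered from TPM in 3000 genes. All 3000 were equal in each match, and at most 7 in the columns without a match. The nearest other column belonged to the same group for 54 of 55 TPM columns and 31 of 55 count columns, so TPM under its own names was used. All 24 RNA-only columns matched.

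Multi-omic TPM was scaled with TMM factors, and log2(TPM + 1) was tested with limma-trend (limma 3.58.1, R 4.3.3) over 16 means of class and day and 25664 genes of at least 1 TPM in at least 3 libraries. RNA-only counts were tested with edgeR 4.0.16 (quasi-likelihood, TMM, filterByExpr), with the line as block for purity classes, which is the label that pairs them, and the differentiation as block for stages. Benjamini-Hochberg adjustment ran over all tested genes, with calls at 0.05. Nothing in the labels says that wells came from separate cultures, so their spread may be technical. Depth recovered from TPM gave whole reads for 100% of values of 37194 genes (tolerance 0.02). The code was tested on simulated data.

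The members and all lists were chosen with earlier results of these data known. Any member may be named. Well values are given for HMGCS1, SQLE, INSIG1, SREBF1, SREBF2, SCD, FASN, FADS2, DHCR7 and STARD4 where they passed between classes and for the 2 largest calls in each direction. Outside the members, up to 4 genes per comparison that changed at least 2-fold are named. Alternatives were other scalings, pseudocounts, filters, tools, blocks, each library left out and, added after the data were seen, the counts without LSS and ACACA.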

Additional observations from a re-analysis of the deposited data

Results flagged for a closer look

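Among 121 sets of 4 multi-omic wells (1 gene in 1 class on 1 day, for SC5D and the genes always given by well), 4 had 1 well whose gap to the others was large for the range of the set, where chance picks out about 1 set in 20. In the multi-omic wells of day 6 from high purity, well 4 was low in HMGCS1 (69.735 TPM, against 75.488 to 76.648 TPM in the other wells) and in STARD4 (3.7823 TPM, against 6.2161 to 6.4529 TPM). On day 2, high purity well 4 was high in INSIG1 (16.686 TPM, against 12.756 to 13.393 TPM). On day 10, low purity well 1 was high in SREBF1 (24.401 TPM, against 20.119 to 20.657 TPM). The change between days also differed between the high and low purity differentiations when that difference was tested with limma. It did so for 20 of 31 genes over days 0 to 2, 14 over days 2 to 4 and 8 over days 4 to 6. It did so for 9 over days 6 to 8 and 9 over days 8 to 16. Of all genes, 9.57% were higher and 9.06% lower in this difference over days 0 to 2. The shares were 14.0% and 16.3% over days 2 to 4, and 7.77% and 9.16% over days 6 to 8. Over days 4 to 6, 12.0% were higher, as all 8 listed genes were. Over days 8 to 16, 26.8% of all genes differed in either direction, so the 9 of 31 listed genes were near that share.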

How the results depend on the processing

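Without TMM scaling these log2 values changed sign: SCAP (-0.029) and SREBF2 (-0.031) on day 8, FASN (-0.048) and SCD (-0.002) on day 16, ELOVL6 (-0.006) and SCD (-0.064) over days 6 to 8 and SREBF2 (-0.013) over days 8 to 16 in high purity wells, and the median difference in step over days 6 to 8 (-0.197). RLE factors gave 14 calls on day 0. The multi-omic counts, taken by their own column names, gave 7, 0, 2, 2, 12, 3 and 2 calls between the classes on days 0, 2, 4, 6, 8, 13 and 16, with medians of -0.249 on day 0 and 0.013 on day 4. The cause of these changes was not tested. On reads recovered from TPM, edgeR gave 24, 20, 18, 18, 17, 16 and 22 calls.

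Well numbers did not pair the wells: over 24 pairs the correlation of deviations was -0.068 to 0.077, and in 10 of them the wells correlated best with their own number. With the well number as a replicate block the calls between classes were 21, 21, 17, 19, 19, 14 and 22. In the RNA-only experiment, without the line as replicate block, 0 genes were called between the classes; DESeq2 called 2 at the fourth stage and 4 for the mean, and without a filter 2 were called from the second to the third stage.

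Leaving out 1 well gave 15 to 18, 18 to 21, 14 to 17, 16 to 21, 14 to 18, 12 to 17 and 15 to 21 calls between classes on those days. For the difference in step between the differentiations over days 8 to 16 it gave 7 to 14 calls. Leaving out 1 differentiation gave 1 to 5 calls from the second to the third stage and 0 to 4 from the third to the fourth. Medians near 0 then changed sign: they ranged from -0.096 to 0.041 for the difference in step over days 8 to 16, -0.015 to 0.07 over days 2 to 4 and -0.068 to 0.031 over days 6 to 8, from -0.003 to 0.149 between classes on day 6, and, with 1 line left out, from -0.112 to 0.061 on day 0 and -0.068 to 0.099 at the second stage. Over all alternatives for single genes, 1802 values kept direction and call, 78 lost the call and 7 changed sign. With 1 multi-omic well or 1 RNA-only differentiation left out, 3795 kept and 246 lost the call. Genes of few reads, such as ACACA, are limited by depth, and without LSS and ACACA the counts stayed within 1.5-fold.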
